A study of Mus musculus with 6 samples.

Results

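Matrix metalloproteases (MMPs) and their tissue inhibitors (TIMPs) were followed in monocytes from mouse tumours, as the 10 genes Mmp2, Mmp3, Mmp8, Mmp9, Mmp12, Mmp13, Mmp14, Timp1, Timp2 and Timp3. They were taken by symbol from the 56980 genes of the deposited count table, and all 10 were matched and passed the filter on low counts. The cells were sorted from B16F10-mCherry melanomas, a transplanted mouse tumour line that carries a fluorescent tag, on 3 surface proteins: the cells carried CD11b, carried much Ly6C and lacked Ly6G. All samples have the genotype label WT, and no age, strain or time is used here. The 3 control libraries have the treatment label LNP-GFP, where LNP stands for lipid nanoparticle and GFP for green fluorescent protein. The 3 LNP-Gsdme libraries followed nanoparticles that deliver mRNA for gasdermin E, a protein whose cleaved form makes pores in cell membranes. The comparison asks how delivery of gasdermin E changes gene expression in the monocytes of the tumour. Whether each library is its own animal is not in the labels, and p-values therefore cover no more than the spread between these libraries, which may be technical.

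MMPs are zinc-dependent enzymes that cut extracellular matrix and many cell surface and secreted proteins, and most are made as inactive proenzymes. TIMPs bind the active site and block it, and the complex of Mmp14, a membrane-anchored MMP, with Timp2 on the cell surface is also the route by which proMmp2 is activated. In tumours, fibroblasts are a main source of Mmp2, Mmp3 and Timp3, neutrophils store Mmp8 and Mmp9 in granules, macrophages make Mmp12, and Mmp13, Mmp14, Timp1 and Timp2 come from both stromal and myeloid cells.

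The proximal promoters are shown because the members differ in the motif matches of their sequence. Several members of 1 gene cluster share a binding motif of AP-1, the Fos and Jun transcription factors known to induce MMP genes. RefSeq promoter windows (GRCm38.p6, 250 bases before to 50 bases after each start) were found for 8 of the 10 members, all but Mmp2 and Mmp9, and Mmp12 has 2 starts, which makes 9 windows. The 80 bases before the start are printed for 5 of them, with matches on either strand in capitals for the AP-1 motif spelled TGANTCA, for the TATA box spelled TATAAA and for the GC box spelled GGGCGG. The first 3 lie on the plus strand at chr9:7445742-7445821 (Mmp3), chr9:7347294-7347373 (the second of 2 Mmp12 starts) and chr9:7272434-7272513 (Mmp13). The others lie at chr14:54431518-54431597 on the plus strand (Mmp14) and at chr11:118355412-118355491 on the minus strand (Timp2).
Mmp3: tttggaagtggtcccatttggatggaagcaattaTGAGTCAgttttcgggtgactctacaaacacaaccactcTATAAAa
Mmp12: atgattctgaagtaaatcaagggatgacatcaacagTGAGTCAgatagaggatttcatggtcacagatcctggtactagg
Mmp13: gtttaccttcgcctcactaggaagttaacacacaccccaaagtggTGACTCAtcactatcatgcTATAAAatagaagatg
Mmp14: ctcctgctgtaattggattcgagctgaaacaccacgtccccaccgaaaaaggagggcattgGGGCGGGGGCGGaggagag
Timp2: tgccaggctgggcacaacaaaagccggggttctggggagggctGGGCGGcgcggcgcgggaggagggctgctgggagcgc

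The AP-1 match starts at -46 in Mmp3, at -44 in the second Mmp12 window and at -35 in Mmp13, where -1 is the last base before the RefSeq start. The first Mmp12 window had no AP-1 match. It was found in 3 of the 9 windows, against 7.81% of all 32851 windows. A TATA match was found in 4 of the 9, in Mmp3, Mmp8, Mmp12 and Mmp13 (13.6% of all windows). It began at -7 in Mmp3, at -3 on the other strand in Mmp8 and at -16 in Mmp13. In the second Mmp12 window it began at 5, past the RefSeq start. Whether any of these acts as a TATA box was not tested. A GC box was found in 4 windows, those of Mmp14, Timp1, Timp2 and Timp3 (35.7% of all windows). The Ets motif spelled AGGAAG was also searched and found in 7 of the 9, that is in every member with a window but Timp2 (35.4% of all windows). An interferon response element, ISRE, was found in 1, that of Mmp13 (3.44% of all windows). No window of the 8 members held both a TATA match and a GC box. These matches describe letters in the windows and do not show that a factor binds there.

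The LNP-GFP libraries held 20233559 to 22932095 counts and the LNP-Gsdme libraries 15991826 to 18751784. The members had between 148 counts (Mmp3 in LNP-Gsdme 2) and 13373 counts (Mmp14 in LNP-GFP 2). Levels are given as CPM, which are counts scaled to a common library size with TMM factors, and genes were called where the adjusted p of the edgeR quasi-likelihood test over 16010 genes was below 0.05. LNP-GFP 3 stands apart from the other libraries by its position. It lay between LNP-GFP 1 and LNP-GFP 2 in 70.0% of 7731 well expressed genes, and each LNP-Gsdme library lay between the other 2 of its group in 24.3 to 38.6%. LNP-GFP 3 also lay between the other 2 controls for all 10 members. The Gsdme gene itself had a log2 fold change of -0.26 ± 0.22 (SE over 3 libraries per group, edgeR adjusted p = 0.45) and did not pass. Transcripts of cells outside the sorting gate were present in both groups. The 10 fibroblast markers, led by Col1a1 and Col3a1, summed to 9229 to 10208 CPM in the controls and, after LNP-Gsdme, to 2308 to 5774 CPM. None was at 0, 9 were lower and 5 fell. The 10 neutrophil markers, led by Csf3r and S100a9, summed to 146 to 361 and 184 to 365 CPM, 0 of 9 tested passed, and Ly6g, excluded by the sort, stayed at 0 to 0.618 CPM. The 8 macrophage markers, led by Apoe and C1qb, summed to 3813 to 5818 and 3775 to 4077 CPM, with only Apoe called as fallen. The 8 monocyte markers, led by Csf1r and Ly6c2, summed to 3367 to 3922 and 4277 to 5284 CPM, and 3 rose. Of these 8 markers 4 had positive and 4 negative fold changes, with Csf1r among the latter (log2 fold change -0.40, not called). The 8 melanoma markers, led by Dct and Tyrp1, summed to 338 to 1842 and 128 to 756 CPM, and 0 passed. Ly6c2, part of the monocyte sum, encodes the Ly6C antigen of the sort. It had 211 to 267 CPM in the controls and rose to 1374 to 1856 CPM after LNP-Gsdme, so the higher monocyte sum does not describe all monocyte markers. In such bulk samples, fewer cells of a type and less RNA per cell cannot be told apart.

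Of the 10 genes, Mmp2, Mmp3, Mmp14, Timp2 and Timp3 fell in LNP-Gsdme, 0 rose and 5 did not pass. Over all genes tested, 5.32% fell and 6.30% rose. At an unadjusted p below 0.05 the members counted 8 lower and 0 higher, beside 2471 lower and 2580 higher of all 16010 tested genes. DESeq2 called 8 members as fallen and 0 as risen, with 9.4% of all genes fallen and 1543 genes risen. By limma-voom the members counted 4 and 0, with 5.58% of all genes fallen and 1056 genes risen. The median log2 fold change of the members was -0.71, against -0.01 over all tested genes. In 8 members every LNP-Gsdme library lay below every LNP-GFP library, which held for 18.2% of all tested genes. The exceptions were Mmp8 and Timp1, whose groups overlapped, and in 0 members did LNP-Gsdme lie wholly above (19.6% of all tested genes). The calls depended on single libraries. Without LNP-GFP 3 or without LNP-Gsdme 2, 0 members passed by edgeR (8 at an unadjusted p below 0.05 in each case). Without LNP-GFP 2 or without LNP-Gsdme 1 only Mmp14 passed, and without LNP-GFP 1 or without LNP-Gsdme 3 the count was 6.

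**Figure D1:**
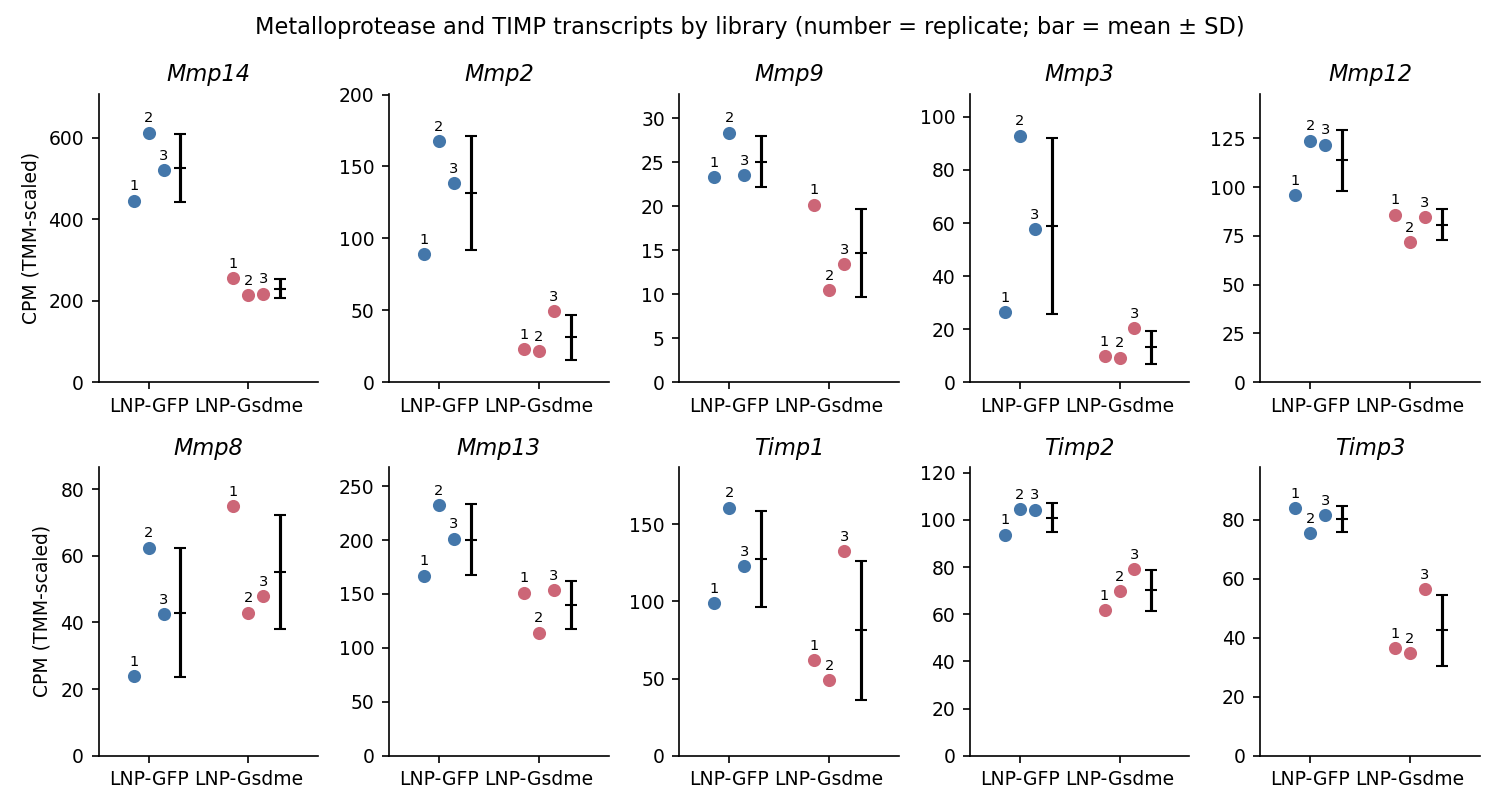
CPM after TMM scaling (vertical axes, each from 0) of the 10 members in 3 LNP-GFP (blue) and 3 LNP-Gsdme (red) libraries, with the replicate number above each point and the mean ± SD as a black bar. In 8 panels the red points all lie below the blue ones, while Mmp8 and Timp1 overlap.

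Among the enzymes, Mmp14 had the smallest p of the members. Mmp14 (chromosome 14, 54669069 to 54682821, GRCm39) is the membrane-type MMP that cuts fibrillar collagen at the cell surface and activates proMmp2. In replicates 1 to 3 it had 446, 612 and 520 CPM after LNP-GFP, and 256, 214 and 217 CPM after LNP-Gsdme. All 3 treated libraries were below the lowest control library, and they spread less among themselves than the controls did. The log2 fold change was -1.20 ± 0.14 (SE over 3 libraries per group, edgeR adjusted p = 0.00882). Without LNP-GFP 3 the adjusted p was 0.0621 and without LNP-Gsdme 2 it was 0.0506, with log2 fold changes of -1.20 and -1.15. Without LNP-Gsdme 3, the treated library with the largest fibroblast marker sum, the value was -1.16 (edgeR adjusted p = 0.0166).

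Mmp2 and Mmp3 had the largest fold changes of the members, with large standard errors. Mmp2 (chromosome 8, 93553919 to 93580048), gelatinase A, which cuts denatured collagen and basement membrane collagen, had 89.1, 168 and 139 CPM after LNP-GFP and 23.0, 21.6 and 49.2 CPM after LNP-Gsdme. Its log2 fold change was -2.07 ± 0.39 (SE over 3 libraries per group, edgeR adjusted p = 0.0258). Mmp3 (chromosome 9, 7445822 to 7455975), stromelysin-1, which cuts proteoglycans and activates other proMMPs, had 26.4, 92.9 and 57.6 CPM after LNP-GFP and 9.78, 9.23 and 20.3 CPM after LNP-Gsdme. Its log2 fold change was -2.17 ± 0.52 (SE over 3 libraries per group, edgeR adjusted p = 0.0455), and it did not pass with limma-voom (adjusted p = 0.0609) or, by edgeR, with no filter on low counts (adjusted p = 0.101). In both genes LNP-GFP 1 was the lowest control and LNP-Gsdme 3 the highest treated library, so that the groups came closest there. LNP-Gsdme 3 also had the largest fibroblast sum of its group, 5774 CPM against 3099 and 2308 CPM, and the part of fibroblast RNA in these falls was not tested.

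Neither of the secreted collagenases Mmp13 and Mmp8 passed. Mmp13 (chromosome 9, 7272514 to 7283331), collagenase-3, had 167, 233 and 201 CPM after LNP-GFP and 151, 114 and 153 CPM after LNP-Gsdme. The groups did not overlap, but the gap between LNP-GFP 1 and LNP-Gsdme 3 was smaller than the SD of either group (log2 fold change -0.52 ± 0.16 SE over 3 libraries per group, edgeR adjusted p = 0.0853). It passed with DESeq2 (adjusted p = 0.0250) and, by edgeR, without LNP-GFP 1 (adjusted p = 0.0473). Mmp8 (chromosome 9, 7558457 to 7568486), the neutrophil collagenase, was the 1 member with a positive fold change, and it was not called. It had 23.8, 62.4 and 42.5 CPM after LNP-GFP and 74.8, 42.9 and 47.9 CPM after LNP-Gsdme, a log2 fold change of 0.36 ± 0.37 (SE over 3 libraries per group, edgeR adjusted p = 0.528). The lowest library was LNP-GFP 1 and the highest LNP-Gsdme 1, and these 2 libraries also had the lowest and the highest neutrophil sum, 146 and 365 CPM. LNP-GFP 2 nearly equalled that highest sum, at 361 CPM. Single markers differed here, with S100a9 higher in LNP-GFP 2 (116 against 108 CPM in LNP-Gsdme 1) and Csf3r lower (97.6 against 152 CPM). The part of neutrophil transcripts in the Mmp8 values was not tested.

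Mmp12 and Mmp9 were lower in LNP-Gsdme without passing. Mmp12 (chromosome 9, 7344381 to 7369499), the macrophage metalloelastase, had 95.9, 124 and 122 CPM after LNP-GFP and 86.0, 71.8 and 84.6 CPM after LNP-Gsdme. Its groups were separate by less than 1 SD of LNP-GFP, and it just missed the threshold (log2 fold change -0.49 ± 0.13 SE over 3 libraries per group, edgeR adjusted p = 0.0532, 0.00847 with DESeq2 and 0.0209 without LNP-GFP 1). With upper-quartile scaling it passed by edgeR as well. Mmp9 (chromosome 2, 164782700 to 164797770), gelatinase B, had 23.3, 28.4 and 23.5 CPM after LNP-GFP and 20.2, 10.5 and 13.4 CPM after LNP-Gsdme. LNP-Gsdme 1 was close to the controls and the other 2 treated libraries were well below them (log2 fold change -0.77 ± 0.24 SE over 3 libraries per group, edgeR adjusted p = 0.0839, 0.0196 with DESeq2).

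The inhibitors differed in how steady their values were. Timp2 (chromosome 11, 118191895 to 118246566), the partner of Mmp14, had 93.8, 105 and 104 CPM after LNP-GFP and 61.6, 69.7 and 79.1 CPM after LNP-Gsdme. The fall was small beside those of Mmp2 and Mmp3 but exceeded the spread in both groups (log2 fold change -0.52 ± 0.11 SE over 3 libraries per group, edgeR adjusted p = 0.0315). Timp3 (chromosome 10, 86136236 to 86185370), the inhibitor that binds to the matrix and also blocks ADAM17, had 83.9, 75.3 and 81.5 CPM after LNP-GFP and 36.4, 34.8 and 56.4 CPM after LNP-Gsdme. Its log2 fold change of -0.92 ± 0.19 passed the test (SE over 3 libraries per group, edgeR adjusted p = 0.0326), and LNP-Gsdme 3 was again the treated library nearest to the controls. Timp1 (chromosome X, 20736405 to 20740974), the inducible secreted inhibitor, had 98.7, 161 and 123 CPM after LNP-GFP and 62.0, 49.0 and 133 CPM after LNP-Gsdme. LNP-Gsdme 3 exceeded 2 of 3 controls, and Timp1 did not pass (log2 fold change -0.65 ± 0.39 SE over 3 libraries per group, edgeR adjusted p = 0.294). Without that library its log2 fold change was -1.20 (edgeR adjusted p = 0.0341).

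**Figure D2:**
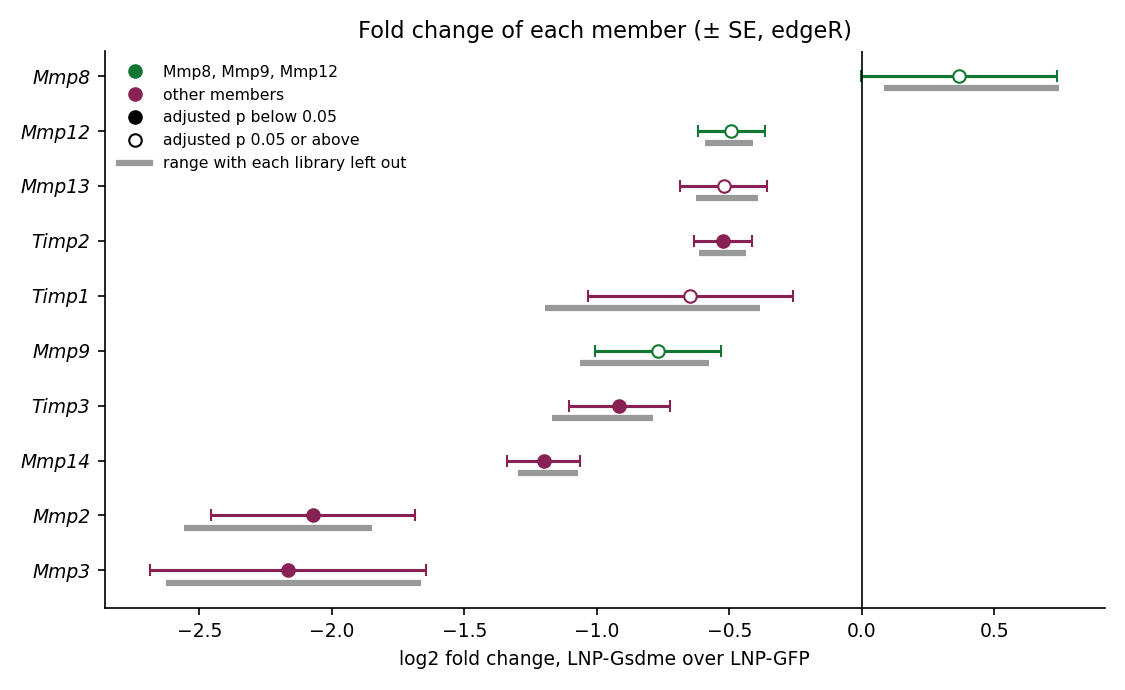
Log2 fold change of LNP-Gsdme over LNP-GFP (horizontal axis) for each member with its SE from edgeR, filled where the adjusted p was below 0.05; grey bars span the values with each library left out in turn. Mmp8 alone has a positive value, and Mmp3 and Mmp2 have the most negative ones, at -2.17 and -2.07.

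The members usually counted as myeloid (Mmp8, Mmp9 and Mmp12) and the other 7 members were set side by side. Of the myeloid members 0 of 3 passed, with a median log2 fold change of -0.49, and of the others 5 of 7 fell, with a median of -0.92. By library, the mean log2 CPM of the myeloid members minus that of the other 7 was -1.48, -1.42 and -1.46 in LNP-GFP 1 to 3 and -0.07, -0.59 and -1.07 in LNP-Gsdme 1 to 3. The controls were nearly equal in this difference, and all 3 treated libraries lay above them, LNP-Gsdme 3 by the least. No test of the difference between these classes was made, since the members were chosen with results known, and Mmp12 and Mmp13, 1 from each class, had nearly the same fold change.

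Set against the summed fibroblast markers, the members did not move alike. That sum is mostly collagen mRNA, since Col1a1, Col1a2 and Col3a1 made up 86.9 to 93.0% of it in each library. The other markers did not all go with it: Pdgfra, Pdgfrb and Thy1, named after their values were seen, had log2 fold changes of -0.48, -0.36 and 0.40, did not pass (edgeR adjusted p = 0.309, 0.418 and 0.33) and overlapped between the groups. The remaining markers did go with it. Dcn, Lum, Postn and Fap had log2 fold changes of -1.48, -1.82, -1.46 and -1.47, without overlap between the groups, and all but Dcn (edgeR adjusted p = 0.0677) passed. Since the sum is mostly collagen mRNA, the ratios describe the members against collagen transcripts. Per 1000 CPM of summed fibroblast markers, Mmp2 had 9.66, 16.4 and 14.3 CPM after LNP-GFP and 7.43, 9.35 and 8.52 CPM after LNP-Gsdme, below the controls in every library. Mmp3 overlapped on that scale, at 2.86 to 9.10 against 3.15 to 4.0. Mmp14 overlapped as well, at 48.3, 60.0 and 53.7 against 82.5, 92.7 and 37.6. In LNP-Gsdme 1 and 2, which had the smallest sums, this ratio was above all controls, and in LNP-Gsdme 3 it was below them. Timp1, which had overlapped in CPM, was separate in this ratio, at 10.7 to 15.8 in the controls against 20.0 to 23.0 in the treated libraries. The ratios of Timp2, Timp3, Mmp8, Mmp12 and Mmp13 to this sum were also higher in all LNP-Gsdme libraries, while in CPM the first 2 fell and 0 of the 5 rose, and Mmp9 overlapped. The sum itself was 9229 to 10208 CPM in LNP-GFP and 2308 to 5774 CPM in LNP-Gsdme, so a gene with steady CPM has a higher ratio after LNP-Gsdme. How many of all tested genes do so was not counted, and nothing particular to the members is read from the higher ratios.

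**Figure D3:**
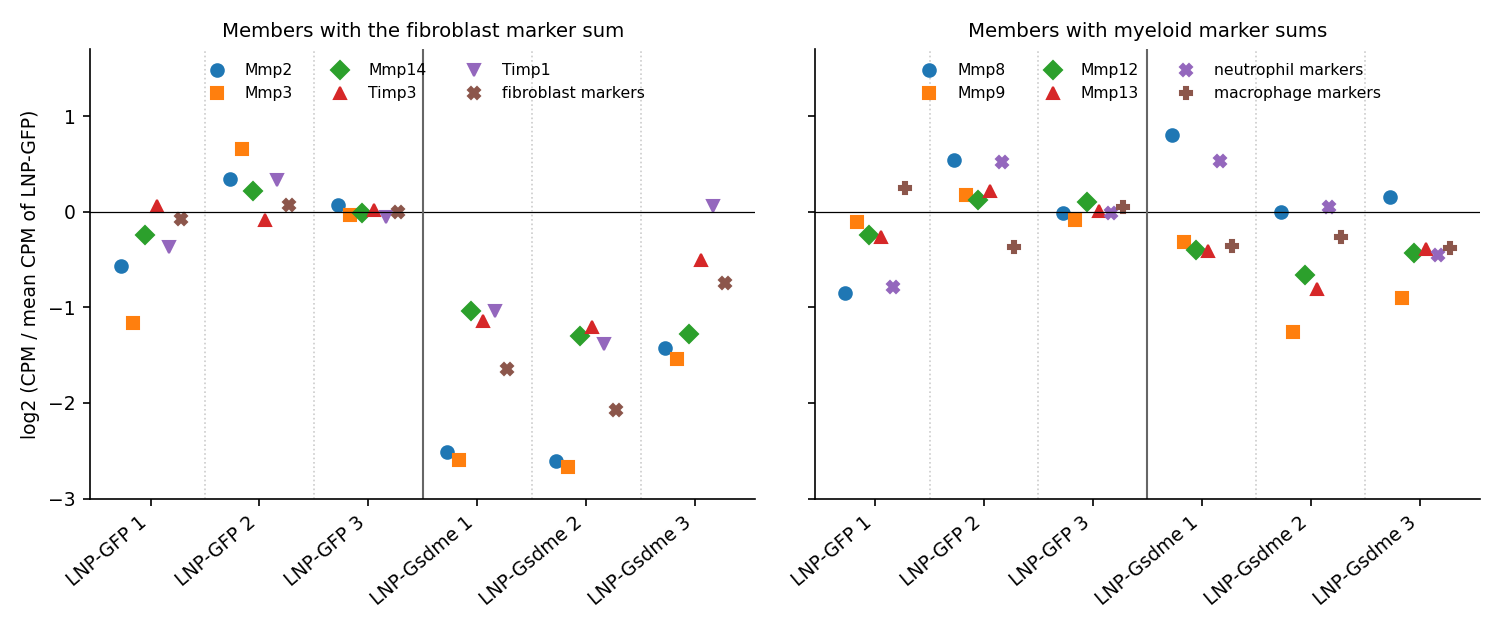
Log2 of the CPM over the mean CPM of LNP-GFP (vertical axis) in each of the 6 libraries (horizontal axis) for members and summed cell type markers. Mmp2 and Mmp3 lie below the fibroblast sum in every LNP-Gsdme library and also in the control LNP-GFP 1. Mmp8 and the neutrophil sum are both lowest in LNP-GFP 1 and highest in LNP-Gsdme 1, with the neutrophil sum of LNP-GFP 2 nearly as high.

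Levels between genes were compared on FPKM, which divide by gene length. In LNP-GFP the mean FPKM was highest for Timp1 (90.9 ± 21.3, SD, n = 3), Mmp13 (74.0 ± 11.4) and Mmp14 (64.4 ± 9.51), whose library ranges overlapped from each to the next. Mmp3 (32.2 ± 17.9, with every library below every Mmp14 value), Mmp2 (27.8 ± 8.10), Timp2 (24.4 ± 1.27), Mmp8 (17.4 ± 7.68) and Mmp12 (11.3 ± 1.44) followed, again with overlap between neighbours, and Timp3 (8.79 ± 0.576) and Mmp9 (6.28 ± 0.651) were each separate from the gene before. In LNP-Gsdme, Timp1 (59.7 ± 34.5, SD, n = 3) and Mmp13 (52.7 ± 8.76) still led, and Mmp14 (28.5 ± 2.46) was now below every Mmp13 value. Mmp8 (22.9 ± 6.72) moved from rank 7 to rank 4, while Mmp3 (7.38 ± 3.69) and Mmp2 (6.79 ± 3.55) moved to ranks 7 and 8. Neighbours in this order overlapped from Mmp14 through Mmp8 to Timp2, and from Mmp12 through Mmp3, Mmp2 and Timp3 to Mmp9. The order within these 2 runs is thus one of means only. Mmp2 and Mmp3 were the members whose rank by mean FPKM dropped.

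**Figure D4:**
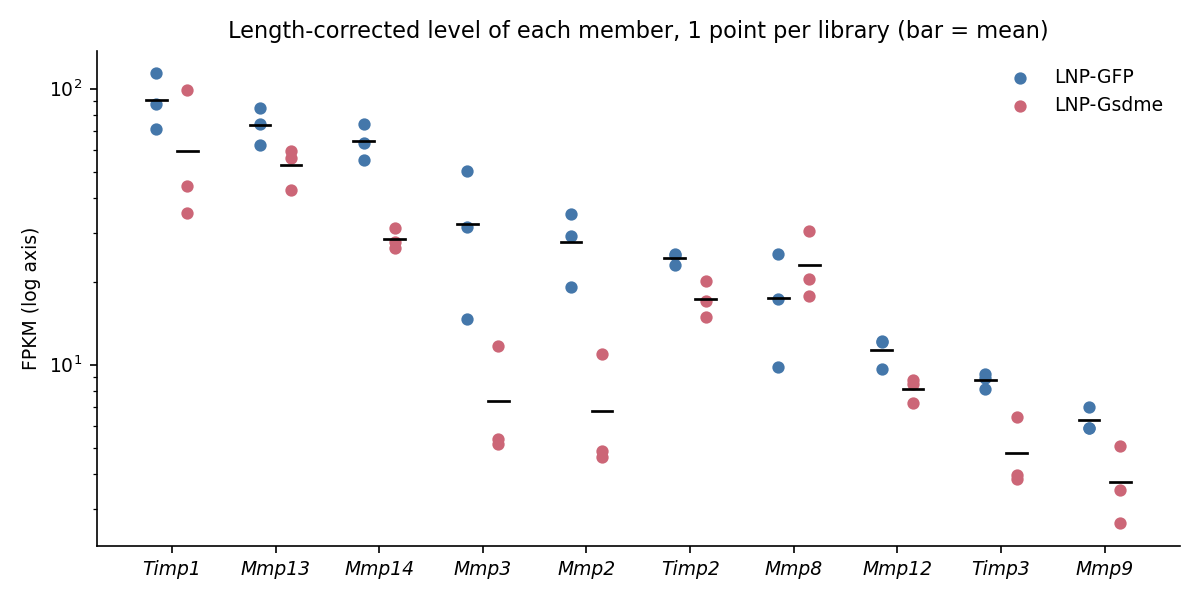
Deposited FPKM (vertical log axis) of each member in the 3 LNP-GFP (blue) and 3 LNP-Gsdme (red) libraries, ordered by the LNP-GFP mean, with bars at the group means. Timp1, Mmp13 and Mmp14 have the highest LNP-GFP means, and Mmp9 has the lowest in both groups.

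Sums and ratios of FPKM compare enzymes with inhibitors, and the ratios, taken within a library, need no scaling between libraries. The summed FPKM of the 7 MMPs was 177, 289 and 235 in LNP-GFP and 141, 107 and 142 in LNP-Gsdme, without overlap, and that of the 3 TIMPs was 104, 147 and 122 against 63.1, 56.4 and 126, with overlap. The log2 ratio of both sums overlapped, at 0.77 to 0.98 in the controls against 0.18 to 1.16. Within the summed MMP FPKM, Mmp13 made up 29.4 to 35.3% in the controls against 39.5 to 41.7% in the treated libraries, and Mmp8 went from 5.55 to 8.70% to 14.3 to 21.5%. Mmp2 went from 10.8 to 12.5% to 3.44 to 7.64%. These are shares of a total that was itself lower after LNP-Gsdme, and in FPKM the mean of Mmp13 was lower and the groups of Mmp8 overlapped. The log2 ratio of Mmp14 to Timp2, the partners of the activation complex, was 1.27, 1.57 and 1.34 in LNP-GFP and 1.07, 0.64 and 0.47 in LNP-Gsdme. For Mmp2 over Timp2 it was -0.27 to 0.49 and -1.88 to -0.88, and both pairs were lower in every LNP-Gsdme library. Mmp9 over Timp1 overlapped, at -4.02 to -3.59 and -4.82 to -3.13.

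Mmp3, Mmp8, Mmp12 and Mmp13 belong to a run of 10 MMP genes on chromosome 9 (7272514 to 7699586, GRCm39) that spans 427 kb with 0 other protein-coding genes inside it. In chromosome order, the log2 fold changes of the 6 tested genes were -0.52 (Mmp13), -0.49 (Mmp12), -2.17 (Mmp3), -2.05 (Mmp10), 0.36 (Mmp8) and 0.69 (Mmp27). Genes of the run thus did not share a fold change, and among these 6 only Mmp3 and Mmp10, which have Mmp1a at 0 counts between them, fell (edgeR adjusted p = 0.0455 and 0.0481). Mmp10, stromelysin-2, had 2.88, 9.39 and 6.24 CPM after LNP-GFP and 1.63, 0.811 and 1.96 CPM after LNP-Gsdme, and LNP-GFP 1 was lowest and LNP-GFP 2 highest among controls, as in Mmp3. The end of Mmp12 overlaps that of Mmp1b by 1261 bases, but Mmp1b had at most 1 count. Timp1 and Timp3 lie inside Syn1 and Syn3, which had at most 147 and 14 counts in any library, against up to 3512 and 1923 for the inhibitors. Timp2 overlaps Cep295nl, which had at most 13 counts, Mmp2 overlaps the non-coding gene Gm45472 with at most 71, and Mmp14 overlaps a gene without a symbol with at most 97.

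The AP-1 motif of Mmp3, Mmp12 (at its second start only) and Mmp13 was set beside the AP-1 genes themselves. Of 7 tested subunit genes, Fosl2, Fos and Fosb rose and 0 fell, beside 6.3% risen and 5.32% fallen of all tested genes. The list median was 0.38, and the members with the motif had log2 fold changes of -2.17, -0.49 and -0.52. Whether AP-1 acts on these members in these cells was not tested. Fos had 287, 162 and 223 CPM after LNP-GFP and 451, 560 and 514 CPM after LNP-Gsdme (log2 fold change 1.18 ± 0.21 SE over 3 libraries per group, edgeR adjusted p = 0.0231). Fosl2 and Fosb had log2 fold changes of 0.83 and 0.65 (edgeR adjusted p = 0.0220 and 0.0418). Without any 1 of LNP-GFP 3, LNP-Gsdme 1 and LNP-Gsdme 2, 0 subunits passed.

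Other genes of matrix turnover were counted in lists, to be read beside the 5.32% fallen and 6.3% risen of all tested genes. Of 17 further MMP and TIMP genes 9 were tested, of which Mmp10 and Mmp11 fell and 0 rose. As fallen, limma-voom called 0 and DESeq2 5, beside 5.58% and 9.4% of all tested genes. Mmp11, stromelysin-3, a product of stromal fibroblasts, was low, at 1.57 to 3.62 CPM in the controls against 0.618 to 1.19 CPM. Mmp19, chosen after its values were seen as the further MMP with the most counts, had 340, 653 and 483 CPM after LNP-GFP and 325, 265 and 303 CPM after LNP-Gsdme and did not pass (edgeR adjusted p = 0.0876). Of 17 tested genes for activators, docking receptors, clearance and further inhibitors, 3 fell and 2 rose. Thbs1, thrombospondin-1, had 8467 to 9465 CPM in the controls against 4942 to 5801 CPM (log2 fold change -0.74 ± 0.09 SE over 3 libraries per group, edgeR adjusted p = 0.00995). A2m, alpha-2-macroglobulin, which traps proteases, fell by 2.23 on the log2 scale. Plau, urokinase, which makes plasmin and so can activate proMMPs, rose from 335 to 468 CPM to 599 to 644 CPM (edgeR adjusted p = 0.0282). Elane, neutrophil elastase, passed as risen at 0 to 0.0999 CPM in the controls against 0.618 to 1.56 CPM, from 0 to 2 counts in each control library.

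Of 17 tested substrate genes of the matrix (collagens, laminins, elastin, fibronectin and others), 10 fell, 0 rose and the median was -1.30. Over all tested genes 5.32% fell and 6.3% rose. All 17 substrate genes had negative fold changes, as did the 7 members outside the myeloid class. Eln, elastin, a substrate of Mmp12, had a log2 fold change of -2.95 ± 0.27 and Fn1, fibronectin, of -1.95 ± 0.26 (SE over 3 libraries per group). Lamb1 and Vcan fell by 1.37 and 0.92 on the log2 scale. Without any 1 of LNP-GFP 3, LNP-Gsdme 1 and LNP-Gsdme 2, 1 substrate gene fell, and without LNP-GFP 2, 3 fell. Without LNP-Gsdme 3, the treated library with the largest fibroblast marker sum, all 17 fell. The substrate and fibroblast lists share Col1a1, Col1a2, Col3a1 and Dcn, so they are not separate measures. The 5 calls among the further MMP, activator and inhibitor lists in the direction of a fall were 0 without LNP-GFP 3. Without LNP-GFP 2, LNP-Gsdme 1 or LNP-Gsdme 2 in turn, they were 2, 1 and 1, with 0 among the further MMPs.

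**Figure D5:**
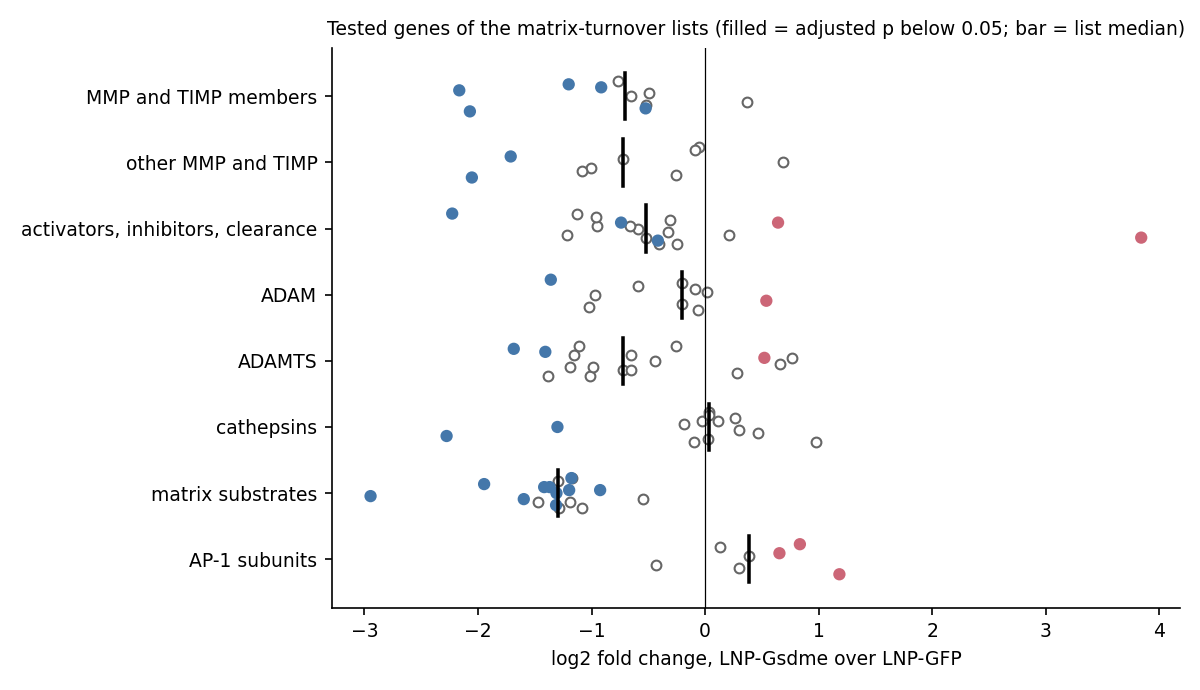
Log2 fold change (horizontal axis) of each tested gene of the members and of 7 lists of related genes, with filled points where the adjusted p was below 0.05 (blue fallen, red risen) and a black bar at each list's median. The matrix substrates have the lowest median, -1.30, and the AP-1 subunits the highest, 0.38; the far right point is Elane, which had 0 to 2 counts in each control library.

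Likeness was measured as the root mean square difference of mean-centred log2 CPM over the 6 libraries, among 7303 named genes with a mean log2 CPM of at least 4. The gene most like Mmp2 was Col14a1 (0.16), a fibril-associated collagen, followed by Tnxb and Fbln1, which encode matrix proteins. Mmp3 was closest to Serpina3n (0.18), Svep1 and Lox, and Mmp14 to Phldb1 (0.05), Trf and Zhx2. Timp3 was closest to Col18a1 (0.06), Stc1 and S1pr1, and Timp1 to Ddr2 (0.10), Ackr3 and Ccn1. Timp2 was closest to Sh3pxd2a (0.03), which encodes a podosome scaffold, then to Rxra and Stt3b. Mmp12 and Mmp13 shared Zkscan17 among their 3 nearest genes (0.05 and 0.07), with Rab12 and Map4k3 also near Mmp12, and Papss2 near Mmp13. Mmp8 was closest to Lrg1 (0.17), a neutrophil and liver secreted protein, then to Phf3 and Spint1, and Mmp9 to Treml4 (0.18), Cyth3 and Mpp7. These values describe 6 libraries and were not tested.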

How the data were processed

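RNA of the sorted cells was purified, treated with DNase and made into paired-end TruSeq libraries, per the labels' protocols. The deposited table holds raw counts that the authors did not normalize and FPKM by the authors, per the file headers, on GRCm39 per the submitters' processing notes. For the aligner, counter, strand setting and annotation, the tool and version were not given in the sources used here, so reads of overlapping or antisense genes could have been counted for either. The deposited FPKM equal the counts over a gene length and the library total (checked on 11356 genes). Groups came from the treatment label and replicate numbers from the titles. In R 4.3.3, edgeR 4.0.16 (filterByExpr, TMM, robust quasi-likelihood test, all 6 libraries) tested 16010 genes, with Benjamini-Hochberg adjustment over all of them. On simulated data of 15679 genes, 92% of genes changed by a log2 fold of 2 and 62% of those changed by 1 were recovered. The 200 changed genes were drawn only from genes above a minimum expected count, so the rates do not cover low counts. Simulated libraries were independent draws, which does not copy the position of LNP-GFP 3 between the other controls. DESeq2 1.42.0, limma 3.58.1 (voom), other scalings and filters, a replicate block and leaving out each library were alternatives. The members and gene lists were chosen with earlier results of these data known. Named were all members, up to 4 called genes with the smallest p per related list (2 by level where none was called), the 2 markers of each list with the highest level, the 3 genes most like each member (1 of them is not reported here) and genes overlapping one. Of the lists of dendritic, NK and T, endothelial, pericyte and epithelial markers, 2 of 6, 0 of 8, 0 of 7, 2 of 6 and 0 of 1 tested genes fell, and 0, 1, 0, 0 and 0 rose. Sequences came from RefSeq.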

Additional observations from a re-analysis of the deposited data

How the results depend on the processing

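Each of the 10 members kept the sign of its fold change in all 15 alternatives, which for the 8 members whose groups did not overlap is no sign of stability. RLE size factors, library size only, no robust fitting and the stricter filter left 5 members fallen, upper-quartile factors 6, and limma-voom and no low-count filter 4. DESeq2 called 8 members as fallen, with 1543 genes risen and 1505 fallen over all. With each library left out in turn, 0 to 6 members fell, and over all genes 64 to 1625 rose and 24 to 1216 fell. The lowest counts came without LNP-GFP 3. With the replicate block, 0 members passed, and 103 genes rose and 52 fell. The numbers do not pair the libraries by the data: the correlations of same-numbered libraries' deviations from their group means were 0.107, -0.239 and 0.0207, and not every library correlated best with its own number. Over the alternatives the adjusted p ran from 4.31e-12 to 0.0621 for Mmp14, from 2.78e-07 to 0.112 for Mmp2, from 5.09e-05 to 0.154 for Mmp3, from 0.00096 to 0.139 for Timp2 and from 0.00021 to 0.135 for Timp3. The cause of these changes was not tested, beyond the fewer samples of the fits without a library. Depth sets little limit for the members, the lowest of which had 148 counts, but it does for Mmp10, Mmp11, A2m, Adamts8, Ctsf and Elane.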

Other observations

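The ADAM and ADAMTS families, relatives of the MMPs with enzymes that shed surface proteins and cut proteoglycans, had few calls. These were 1 risen and 1 fallen of 10 ADAM genes and 1 risen and 2 fallen of 17 genes of the ADAMTS list. That list also holds ADAMTS-like (Adamtsl) genes, whose products lack the protease domain. Over all tested genes 6.3% rose and 5.32% fell, and nothing particular to these families is read from the counts. Of 10 tested ADAM genes, Adam10, a sheddase of many surface proteins, rose from 83.7 to 106 CPM in LNP-GFP to 130 to 146 CPM in LNP-Gsdme, and Adam12, a gene of mesenchymal cells, went from 36.1 to 39.8 CPM to 9.54 to 22.4 CPM (edgeR adjusted p = 0.0271 and 0.0388). Of the 17 tested genes of the ADAMTS list, Adamts12 and Adamts8 fell, with log2 fold changes of -1.41 and -1.69. Adamtsl4, an ADAMTS-like gene and not a protease gene, rose (0.52), and the list median was -0.72. Adamts8 was near the floor, at 0.550 to 0.749 CPM in LNP-GFP and 0.169 to 0.250 CPM in LNP-Gsdme. Without any 1 of LNP-GFP 3, LNP-Gsdme 1 and LNP-Gsdme 2, 0 genes of both lists passed, and without LNP-Gsdme 3, 7 genes of the ADAMTS list fell.

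Cathepsins, the proteases of lysosomes, had a median log2 fold change of 0.03. By edgeR 2 of 13 fell and 0 rose, beside 5.32% and 6.3% of all tested genes, and a difference from the MMPs was not tested. At an unadjusted p below 0.05, 2 cathepsins were higher, beside 2580 of all 16010 tested genes. DESeq2 called 1 as risen and limma-voom 0, beside 1543 and 1056 genes over all. The genes that fell were Ctsk, a collagen-cutting cathepsin known from osteoclasts and fibroblasts, at 27.3 to 55.1 CPM in LNP-GFP and 12.9 to 23.3 CPM in LNP-Gsdme, and Ctsf, at 4.19 to 5.91 and 0.449 to 1.60 CPM. Without any 1 of LNP-GFP 2, LNP-GFP 3, LNP-Gsdme 1 and LNP-Gsdme 2, 0 cathepsins passed, and without LNP-GFP 1, 3 rose and 2 fell.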
